A study of Mus musculus with 35 samples.

Results

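Mouse embryonic fibroblasts that had received the reprogramming set without Glis1 were compared with fibroblasts that had received the set without Sall4, day by day, over the week after infection. The full set, abbreviated JEGS, consists of the retrovirally delivered factors Jdp2, Esrrb, Glis1 and Sall4. The comparison uses 16 of the 35 libraries in the series: 8 labelled JEGS-Minus-Glis1 and 8 labelled JEGS-Minus-Sall4, each with 1 library on each of days 0 to 7. Libraries were chosen by their titles, which give the factor left out and the day. The other 19 libraries are the full set on days 2, 4 and 6 and the sets without Esrrb and without Jdp2 on days 0 to 7, and they served as reference levels.

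All groups were primary fibroblasts from E13.5 embryos at passage 2, from CBA/CaJ × C57BL/6J males with an Oct4-GFP transgene crossed to 129 females, infected for 48 hours and then kept in iCD3 medium with a Rock inhibitor. The mother's strain number increases from one sample to the next in the labels and was not used. The treatment label lists all 4 viruses for every sample, against the titles. It also gives a longer time than 48 hours, which is the time in the growth protocol. Levels of the factors in each library, given below, followed the titles. A day of an arm was sampled once, and nothing in the labels says whether successive days came from separate cultures, so the p-values measure how steady a difference between arms was over the days. The labels name 2 library kits and do not say which sample had which, so kit and arm cannot be told apart if the arms differed.

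Glis1 is a zinc-finger protein related to the Gli factors of Hedgehog signalling, and it is known as a helper of reprogramming that is abundant in eggs. Sall4 is a zinc-finger repressor of embryonic stem cells that recruits the nucleosome remodelling and deacetylase complex (NuRD). Esrrb is an orphan nuclear receptor of the naive pluripotency network, and Jdp2 is a repressor that pairs with AP-1 proteins. Both arms contained Esrrb and Jdp2, so the contrast sets cells with Sall4 and no Glis1 against cells with Glis1 and no Sall4.

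Levels are in CPM, a gene's estimated counts relative to the scaled total of its library. Library totals ran from 1672386 to 3608456 counts (median 2185583), so 1 count stood for 0.277 to 0.598 CPM. Log2 fold changes are positive where a gene was higher without Glis1, and negative where it was higher without Sall4, with standard errors (SE) from a model with day as a factor. The threshold was an adjusted p (Benjamini-Hochberg, over the 16428 genes tested) below 0.05 in edgeR's quasi-likelihood test. Fibroblast markers were present in both arms: all 12 measured members passed the filter on low counts, with summed levels of 1348 to 3934 CPM without Glis1 and 1578 to 5842 CPM without Sall4.

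Each omitted factor was at or near 0 where the label says it was left out. Glis1 was at 0 to 4.24 CPM (median 0.478) without Glis1 and 254 to 396 CPM (median 315) without Sall4. Sall4 was at 2981 to 5254 CPM (median 4127) without Glis1 and 0.562 to 10.5 CPM (median 1.99) without Sall4. Neither gene overlapped between the arms. Counts from the virus and from the cell's own gene cannot be told apart in these tables. Esrrb was at 3835 to 7820 CPM (median 5939) without Glis1 and around the same level without Sall4, where the median was 6535 CPM, and its difference of -0.13 ± 0.08 on the log2 scale did not pass (adjusted p = 0.236). Jdp2 was at 1431 to 3401 CPM (median 2567) without Glis1 and at 745 to 1347 CPM (median 1245) without Sall4. Jdp2 therefore differed 2.06-fold with no overlap (log2 fold change 1.04 ± 0.09, adjusted p = 1.3e-06). The dose of Jdp2 varied with the omitted factor in every comparison that follows, and its part in the results was not tested.

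**Figure D1:**
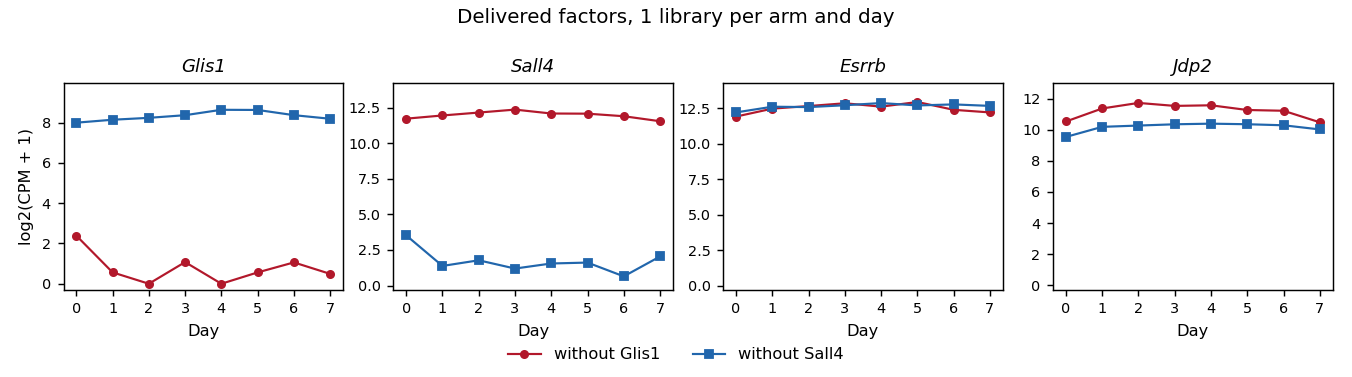
Level of the 4 delivered factors, as log2(CPM + 1), on days 0 to 7 in the arm without Glis1 (red circles) and the arm without Sall4 (blue squares), 1 library per point. Glis1 stays at 4.24 CPM or below and Sall4 at 10.5 CPM or below in the arm that lacks each, while Jdp2 lies above the other arm on every day in the arm without Glis1.

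The arms differed over a large share of the transcriptome. Of the genes tested, 3094 (18.8%) were higher without Glis1 and 3316 (20.2%) were higher without Sall4, and the median log2 fold change of all genes was 0.01. Every list count that follows is to be read beside these 2 shares. With at least a 2-fold difference of the same sign on all 8 days, 773 genes (4.71%) were higher without Glis1 and 865 (5.27%) were higher without Sall4. The divergence began early: the correlation of log2 CPM between the arms, across genes, was 0.947 on day 0, 0.912 on day 1 and 0.887 to 0.896 on days 2 to 7. Genes are not independent replicates, and these values only describe the libraries.

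Hedgehog signalling works through the receptor Ptch1, which holds back Smo until a Hedgehog ligand binds, after which Gli proteins switch on target genes that include Ptch1 and Hhip themselves. Both feedback targets were lower in the arm that lacked Glis1. Gli1, also a target, had too few counts for the filter and leaned the other way, as given below. Of 11 members of the pathway list, 10 passed the filter, 4 were higher without Glis1 and 5 were higher without Sall4. All genes tested gave 18.8% and 20.2%. The median log2 fold change of the measured members was -0.44. Ptch1 was at 11.6 to 33.4 CPM (median 20.2) without Glis1 and 49.4 to 203 CPM (median 126) without Sall4. The 2 ranges did not touch, and the day 0 libraries, at 33.4 and 49.4 CPM, were the closest pair (log2 fold change -2.60 ± 0.28, adjusted p = 5.5e-06). Hhip, which binds and traps Hedgehog ligands, was at 0 to 5.27 CPM (median 0.651) without Glis1 and 23.6 to 55.3 CPM (median 34.3) without Sall4. That difference was already present on day 0, at 0.471 against 48.9 CPM (log2 fold change over all days -4.91 ± 0.35, adjusted p = 1.2e-07). The differences of Sufu (-0.44) and Smo (-0.43) were small. Sufu did not pass when day 3, 4 or 6 was left out (adjusted p = 0.0523 to 0.0705), nor Smo when any 1 of days 4 to 7 was left out (adjusted p = 0.0553 to 0.0659).

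The ligand gene Dhh and the co-receptor genes went the other way. Another ligand gene, Ihh, did not pass. With scaling over all 35 libraries, Ihh was at 0, 0 and 3.82 CPM without Glis1 on days 2, 4 and 6. Without Sall4 it was at 8.79, 3.98 and 3.80 CPM on those days. Dhh, which encodes Desert hedgehog, was at 8.01 to 99.0 CPM (median 70.5) without Glis1 and 0.403 to 7.61 CPM (median 1.60) without Sall4. Every library without Glis1 exceeded every library without Sall4 (log2 fold change 4.83 ± 0.31, adjusted p = 5.3e-08). The co-receptors Boc (1.55 ± 0.20, adjusted p = 2.9e-05), Cdon (0.84 ± 0.24, adjusted p = 0.014) and Gas1 (0.76 ± 0.27, adjusted p = 0.038) were also higher without Glis1. Over days 3 to 7 alone, Cdon was at 0.34 (adjusted p = 0.229) and Gas1 at 0.35 (adjusted p = 0.0643), and by limma neither passed (adjusted p = 0.0774 and 0.0505). Gas1 also did not pass when day 1, 2, 4 or 5 was left out (adjusted p = 0.055 to 0.083). The count of 5 genes higher without Sall4 fell to 3 when day 4 or day 6 was left out, to 3 without the day term and to 2 by limma on log2(TPM + 1).

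Relatives of the delivered factors also differed, in both directions. Of 13 measured members of their list, which includes Jdp2, 5 were higher without Glis1 and 5 were higher without Sall4, beside 18.8% and 20.2% of all genes tested. In the part with relatives of Esrrb and Jdp2, 3 of 5, Jdp2 itself included, were higher without Glis1 and 2 were higher without Sall4. Glis2, a close relative of Glis1, was at 132 to 192 CPM (median 177) without Glis1, with little change over the week. Without Sall4 it was at 251 CPM on day 0 and between 566 and 981 CPM on days 1 to 7 (log2 fold change -1.98 ± 0.20, adjusted p = 2.9e-06). Glis3 was likewise higher without Sall4 (-0.76 ± 0.20, adjusted p = 0.0066). Gli2 (1.57 ± 0.29, adjusted p = 0.00066) and Gli3 (0.79 ± 0.13, adjusted p = 0.00026), which can activate or repress Hedgehog targets, were higher without Glis1. Gli1, a target and effector of the pathway, had 16 counts without Glis1 and 1 without Sall4 in all, too few for the filter. The Sall4 relative Sall1 was higher without Sall4, at 3.68 to 12.1 CPM against 0.416 to 3.33 CPM (-1.60 ± 0.37, adjusted p = 0.003). Esrrg, a relative of Esrrb, was at 1.92 to 13.7 CPM without Glis1 and 0 to 1.12 CPM without Sall4 (4.25 ± 0.50, adjusted p = 1e-05).

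Imprinted genes are expressed from 1 parental copy, and many control fetal growth. Of 12 members of the imprinted list, 6 were higher without Sall4 and 3 were higher without Glis1, beside 20.2% and 18.8% of all genes. The widest gap was in Cdkn1c, a CDK inhibitor that slows the cell cycle. Both arms began alike on day 0, at 83.3 CPM without Glis1 and 73.5 CPM without Sall4. Without Glis1, Cdkn1c then stayed between 37.2 and 55.3 CPM. Without Sall4, it was at 1057 CPM on day 1 and between 1399 and 2615 CPM from day 2 onward (log2 fold change -4.85 ± 0.55, adjusted p = 1e-05). Igf2, a fetal growth factor, was at 2577 CPM on day 0 without Glis1 and at 307 to 744 CPM from day 2 onward, while without Sall4 it was at 2066 to 4979 CPM (median 3724) over the week. The log2 fold change of Igf2 was -2.50 ± 0.25 (adjusted p = 2.7e-06).

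Plagl1, a transcription factor that regulates other imprinted genes, was at 55.7 to 138 CPM (median 61.3) without Glis1 and 239 to 569 CPM (median 524) without Sall4. Its ranges were separate on all days (-2.80 ± 0.23, adjusted p = 5.1e-07). H19, a noncoding RNA beside Igf2, was also higher without Sall4 (-2.12 ± 0.29). Grb10, an adaptor that restrains growth, had a log2 fold change of -0.43 and did not pass when any 1 of days 2 to 7 was left out (adjusted p = 0.0539 to 0.0954). Ascl2, a trophoblast regulator, had a log2 fold change of -2.94 at 4.23 CPM or below, and did not pass when day 3, 4 or 6 was left out (adjusted p = 0.058 to 0.071). Mest (2.20 ± 0.23, adjusted p = 4.4e-06), Dlk1 (1.61 ± 0.30, adjusted p = 0.00077) and Meg3 (0.79 ± 0.21, adjusted p = 0.0092) went the other way. Mest was at 48.1 to 521 CPM (median 88.3) without Glis1 and 15.0 to 33.6 CPM (median 19.2) without Sall4. Imprinted genes thus split, with the growth inhibitor and the growth factor on the same side.

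**Figure D2:**
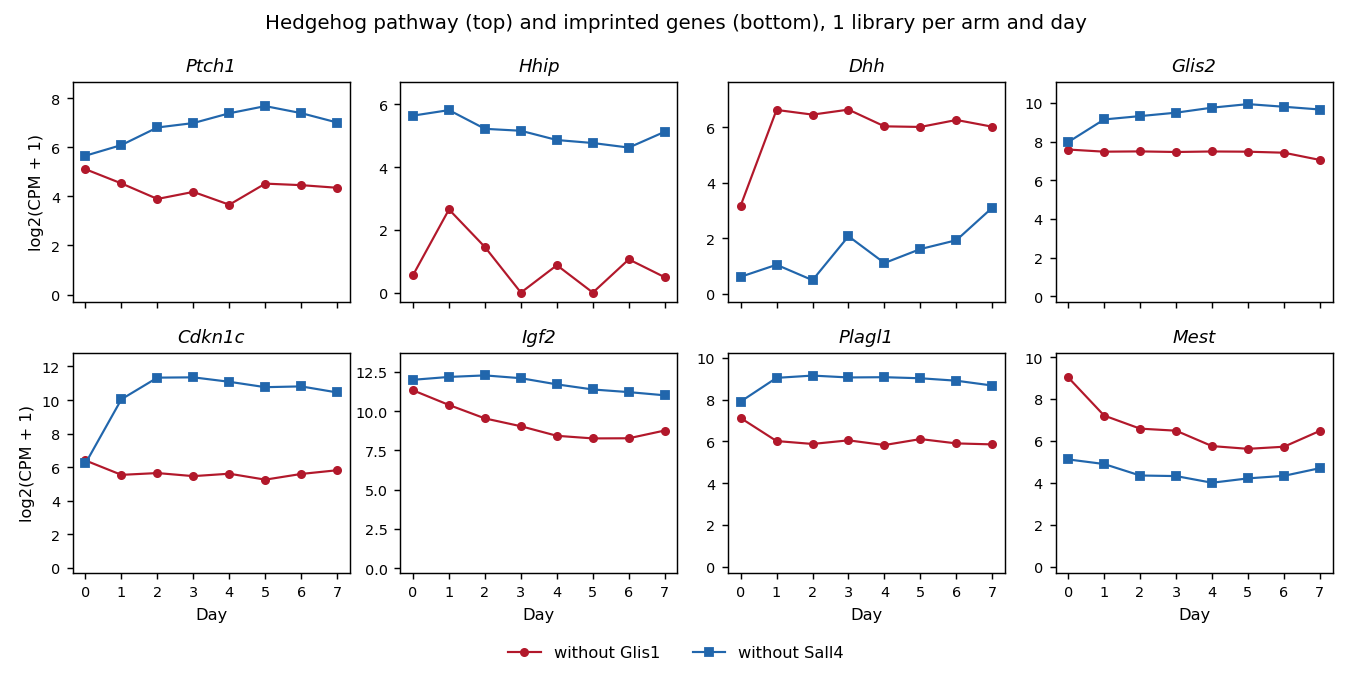
Hedgehog pathway genes and Glis2 (top row) and imprinted genes (bottom row) as log2(CPM + 1) on days 0 to 7, in the arm without Glis1 (red circles) and the arm without Sall4 (blue squares), 1 library per point. Cdkn1c starts at 83.3 and 73.5 CPM and separates from day 1, while Hhip is apart from day 0 (0.471 against 48.9 CPM).

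Interferon response genes were higher without Glis1, and the gap widened over the week. The pathway starts with sensors of viral RNA or DNA, continues through secreted interferon, its receptor and the STAT and IRF transcription factors, and ends in antiviral effectors and antigen presentation. Promoters of many effectors hold a short sequence, the interferon-stimulated response element, searched here on both strands as GAAA, any 2 bases and GAAA again, with overlapping matches counted. Promoter windows run from 250 bases before to 50 bases after the start site and come from RefSeq (GRCm38.p6, the assembly also called mm10). Of 38 transducer, effector and antigen presentation genes, 31 had a window, and 12 of these held the element, 9 of them among 15 effectors. Among all genes with a window, 1079 of 27025 held it. Counted by window, 12 of 35 held it, against 3.44% of all 32851 windows of this length. The other holders were 2 transducers and 1 antigen presentation gene. Windows of Irf7, Psmb8 and Tap1, which were higher without Glis1, held no match. A match describes letters and does not show a site in use, and its relation to the change in level was not tested. The windows of Ifit1 and Isg15 are printed because each holds more than 1 copy, with the element in capitals. They lie at chr19:34640639-34640938 on the plus strand and chr4:156200769-156201068 on the minus strand, and the 3 overlapping matches of Isg15 form 1 run of capitals.
Ifit1: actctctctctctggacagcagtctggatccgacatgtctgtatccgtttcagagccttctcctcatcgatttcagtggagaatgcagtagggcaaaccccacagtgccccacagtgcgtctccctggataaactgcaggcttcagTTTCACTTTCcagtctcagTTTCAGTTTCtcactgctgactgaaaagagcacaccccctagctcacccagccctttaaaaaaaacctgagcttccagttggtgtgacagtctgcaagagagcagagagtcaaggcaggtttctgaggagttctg
Isg15: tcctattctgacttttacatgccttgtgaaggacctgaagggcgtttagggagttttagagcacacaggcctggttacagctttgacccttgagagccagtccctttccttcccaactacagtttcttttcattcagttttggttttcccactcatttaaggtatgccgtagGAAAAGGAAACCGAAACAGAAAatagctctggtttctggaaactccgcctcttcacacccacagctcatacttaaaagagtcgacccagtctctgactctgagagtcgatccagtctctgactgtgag
Single copies with 10 bases on each side follow for the transducer Stat2 (chr10:128270266-128270295, plus strand) and the effector Rsad2 (chr12:26456553-26456582, minus strand), whose levels both differed.
Stat2: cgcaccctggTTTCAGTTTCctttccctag
Rsad2: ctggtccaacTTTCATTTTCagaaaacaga

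Of 54 members of the interferon list, 51 passed the filter, 38 were higher without Glis1 and 3 were higher without Sall4. The median log2 fold change of the measured members was 1.94, against 0.01 over all genes. Among the sensors, 6 of 8 were higher without Glis1, including Tlr3, a receptor for double-stranded RNA, at 4.71 to 82.8 CPM (median 60.1) against 3.15 to 19 CPM (median 10.7) (2.22 ± 0.18, adjusted p = 4e-07). The cytosolic RNA sensor Ifih1 was at 3.35 to 148 CPM (median 63.1) without Glis1 and 2.63 to 25.3 CPM (median 17.1) without Sall4 (1.83 ± 0.29, adjusted p = 0.00019). Interferon beta itself (Ifnb1) was nearly absent, with 3 counts without Glis1 and 0 without Sall4. The receptor genes Ifnar1 and Ifnar2 did not pass, with log2 fold changes of 0.26 and 0.09.

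Among the transducers 5 of 9 measured genes were higher without Glis1. Stat2 was at 28.7 to 302 CPM (median 193) against 19.3 to 38.6 CPM (median 24.4) (2.36 ± 0.32, adjusted p = 4.8e-05). Irf7, which amplifies the response, was at 2.35 CPM on day 0 and 348 CPM on day 7 without Glis1, and at 0 and 21.8 CPM on the same days without Sall4 (2.63 ± 0.37, adjusted p = 6.3e-05). Usp18, a feedback inhibitor at the receptor, had a log2 fold change of 3.19 ± 0.32 (adjusted p = 3.6e-06). For each of these genes the arms were closer on days 0 and 1 than on day 4.

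All 18 antiviral effectors differed, 17 of them higher without Glis1. Oas3, 1 of the 17, did not pass by edgeR when day 6 or 7 was left out (adjusted p = 0.0689 to 0.113). Ifit1, which binds foreign RNA, was at 3.35 to 315 CPM (median 104) without Glis1 and 0 to 18.6 CPM (median 9.17) without Sall4 (3.63 ± 0.26, adjusted p = 1.4e-07). Isg15, a ubiquitin-like modifier, was at 0.479 CPM on day 1 and 162 CPM on day 7 without Glis1, against 2.13 and 15.2 CPM (2.52 ± 0.35, adjusted p = 6.1e-05). Oas2, which makes the activator of RNase L, was at 0 on days 0 and 1 in both arms and at 66.2 against 1.04 CPM on day 7 (5.06 ± 0.34, adjusted p = 3.1e-07). Mx1 had 15 counts without Glis1 and 0 without Sall4, at least 6.31-fold higher against a floor of 3 counts over the arm, and did not pass when day 3 was left out (adjusted p = 0.053). The exception was Samhd1, a nucleotide hydrolase that limits retroviruses, at 20.5 to 44.0 CPM (median 33.9) without Glis1 and 64.5 to 85.1 CPM (median 78.0) without Sall4. Its ranges were separate on all days, day 0 included (-1.22 ± 0.10, adjusted p = 7.3e-07). Ifit3 and Ifit3b share much sequence, so counts may be divided between them.

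Antigen presentation followed the effectors in 8 of 10 genes. Psmb8, an immunoproteasome subunit, was at 4.79 to 118 CPM (median 43.1) without Glis1 and 1.05 to 7.71 CPM (median 3.21) without Sall4 (3.63 ± 0.33, adjusted p = 1.4e-06). Nlrc5, the activator of class I genes, had a log2 fold change of 3.42 ± 0.30 (adjusted p = 8.7e-07), and the peptide transporter Tap1 one of 1.94 ± 0.17 (adjusted p = 8.6e-07). Psmb10 was lower without Glis1 (-0.43 ± 0.14, adjusted p = 0.028) and did not pass when day 2, 3, 4 or 5 was left out (adjusted p = 0.065 to 0.096). In the chemokine part, 2 of 6 measured genes were higher without Glis1 and 1, Ccl2, was higher without Sall4. Ccl2 did not pass when day 1 or day 3 was left out (adjusted p = 0.052 and 0.072). Cxcl1, 1 of the 2 higher without Glis1, did not pass when day 4, 5, 6 or 7 was left out (adjusted p = 0.076 to 0.1).

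The change with time was tested by adding a slope for each arm. Of all genes, 170 (1.03%) had a slope difference toward higher levels without Glis1 and 281 (1.71%) toward lower levels. In the interferon list 19 of 51 measured members had the first kind and none of the measured members had the second, by the same edgeR test. The slope difference of Irf7 was 0.62 log2 units per day (adjusted p = 0.0028), and that of Stat2 was 0.41 (adjusted p = 0.0098). The mean log2 level of the list without Glis1 minus that without Sall4 was 0.41 on day 0, -0.12 on day 1, 0.85 on day 3, 1.81 on day 4 and 2.36 on day 7.

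**Figure D3:**
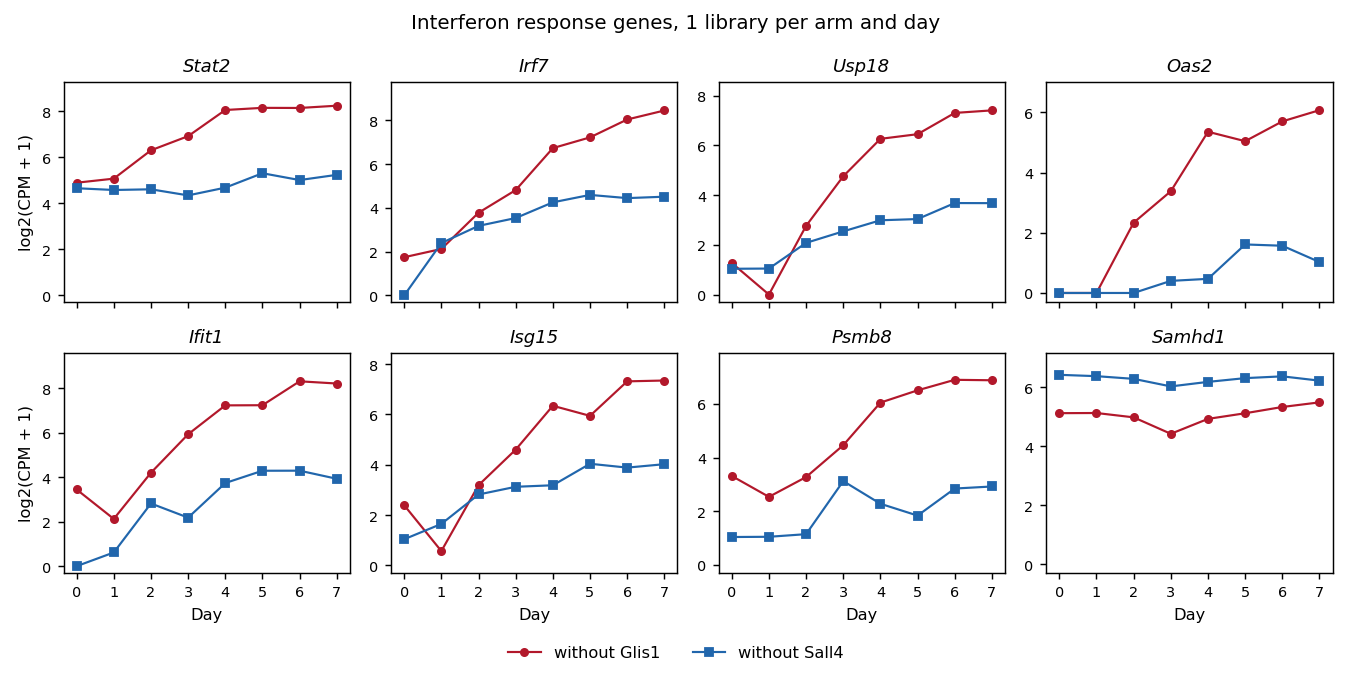
Interferon response genes as log2(CPM + 1) on days 0 to 7, in the arm without Glis1 (red circles) and the arm without Sall4 (blue squares), 1 library per point. Oas2 is at 0 in both arms on days 0 and 1 and at 66.2 against 1.04 CPM on day 7, while Samhd1 lies lower without Glis1 throughout.

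Macrophages respond strongly to interferon and can be carried along in embryonic cultures, so their markers are given beside this result. Of 11 measured macrophage markers, 5 were higher without Sall4 (Lyz2, Laptm5, C1qa, C1qb and C1qc) and Csf1r was higher without Glis1. The summed level of the list was 19.7 to 41.2 CPM without Glis1 and 37.8 to 90.7 CPM without Sall4, and the other 5 measured markers did not pass. Csf1r did not pass when any 1 of days 3 to 7 was left out (adjusted p = 0.070 to 0.109). C1qb did not pass without day 7 (adjusted p = 0.059), and Ptprc did not pass the filter. The part of such cells in the interferon result was not tested.

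For all 38 interferon genes higher without Glis1, the mean log2 level of the full set on days 2, 4 and 6 lay nearer to the arm without Sall4 than to the arm without Glis1. The same held for 38 of 38 in the set without Esrrb and 37 of 38 in the set without Jdp2. The 3 interferon genes higher without Sall4 all lay nearer to the arm without Glis1 in the full set and in the set without Esrrb, as did 2 of the 3 in the set without Jdp2. Irf7 was at 0.773, 2.80 and 7.51 CPM with the full set on days 2, 4 and 6, below both arms. On those days it was at 13.2, 110 and 277 CPM without Glis1 and 8.37, 18.7 and 21.6 CPM without Sall4. A level below both arms is nearer to the lower arm at any distance. Among all genes with a steady 2-fold difference, other than the delivered factors, the full set was nearer to the arm without Sall4 for 489 of 771 genes (63.4%) higher without Glis1 and for 340 of 864 genes (39.4%) higher without Sall4. These nearness counts were chosen after seeing the data, rest on 1 library per day and carry no test. The shared factors were also lower in the full set. Esrrb was at 2594, 1811 and 962 CPM there, against 6662, 6539 and 5634 CPM without Glis1 and 6333, 7686 and 7225 CPM without Sall4. Jdp2 was at 897, 581 and 258 CPM, against 3535, 3212 and 2532 CPM without Glis1 and 1287, 1395 and 1303 CPM without Sall4. The part of these levels in comparisons with the full set was not tested.

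Cell division genes were higher without Glis1. Of 20 mitosis genes, 18 were higher without Glis1 and none of the 20 was higher without Sall4 by edgeR, with a median log2 fold change of 1.02. Of 20 DNA replication genes, 11 were higher without Glis1 and 1, E2f1, was higher without Sall4. E2f1 did not pass when any 1 of days 0 to 4 or day 6 was left out (adjusted p = 0.057 to 0.078). Bub1b, a spindle checkpoint kinase, was at 22.8 to 85.2 CPM (median 39.9) without Glis1 and 6.54 to 57.8 CPM (median 10.7) without Sall4. It was higher without Glis1 on all 8 days, and both arms were lower on day 6 than on day 0 (1.49 ± 0.17, adjusted p = 1.1e-05). Ccne1, the cyclin that drives entry into DNA synthesis, was at 50.4 and 51.5 CPM on day 0, and at 73.3 to 181 CPM on later days without Glis1 against 17.1 to 61.1 CPM (1.72 ± 0.20, adjusted p = 1.2e-05). The helicase subunit Mcm7 was at 61.0 to 135 CPM (median 82.3) against 28.4 to 120 CPM (median 35.8) (0.94 ± 0.14, adjusted p = 0.00013). The slope difference passed for 9 mitosis and 6 replication genes, each toward higher levels without Glis1.

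These counts depended on the day term. Without the day term, 1 mitosis gene and 3 replication genes were called higher without Glis1. All 18 mitosis genes and all 11 replication genes were nearer to the arm without Glis1 in the full set and in the sets without Esrrb and without Jdp2. Bub1b, for example, was at 49.5, 63.9 and 160 CPM with the full set on days 2, 4 and 6, above both arms. On those days Mcm2 was at 133, 169 and 305 CPM with the full set. It was at 78.7, 52.4 and 81.3 CPM without Glis1 and 51.5, 36.6 and 26.3 CPM without Sall4. A level above both arms is nearer to the higher arm at any distance, so nearness here does not show a similar level. Among all genes with a steady 2-fold difference and higher without Glis1, the full set was nearer to that arm for 282 of 771. Inhibitors of division did not follow 1 direction: Cdkn1c was far higher without Sall4, whereas Cdkn1a, the p53 target p21, was higher without Glis1 (0.72 ± 0.15, adjusted p = 0.0015). Of 16 p53 targets, 6 were higher without Glis1 and 2 were higher without Sall4, beside 18.8% and 20.2% of all genes tested. Gdf15, a secreted stress factor, was at 52.7 to 182 CPM (median 129) without Glis1 and 7.35 to 34.6 CPM (median 14.4) without Sall4 (3.05 ± 0.21, adjusted p = 8.7e-08).

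Extracellular matrix and cytoskeletal genes were mostly higher without Sall4. Of 27 collagen and matrix genes, 15 were higher without Sall4 and 7 were higher without Glis1. The lean of this list came with time. Its mean log2 level without Glis1 minus that without Sall4 was 0.103, 0.245 and 0.054 on days 0, 1 and 2. From day 3 onward it was negative, reaching -0.715 on day 7. In the basement membrane part, 4 genes were higher without Glis1 and 3 were higher without Sall4. Of 20 contractile genes (targets of SRF and YAP), 11 were higher without Sall4 and 4 were higher without Glis1. Ccn2, a classic YAP target, was at 43.9 to 550 CPM (median 48.3) without Glis1 and 476 to 2747 CPM (median 546) without Sall4. The ranges met only through the day 0 library without Glis1, and on each day the library without Sall4 was higher (-3.33 ± 0.14, adjusted p = 1.9e-09). Myh9, nonmuscle myosin, was at 1199 to 2124 CPM (median 1563) against 2921 to 4871 CPM (median 3486), with no overlap (-1.16 ± 0.08, adjusted p = 9.8e-08). Ankrd1, another YAP target, had a log2 fold change of -2.26 ± 0.16 (adjusted p = 1.4e-07).

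Fibronectin (Fn1) had a median of 1702 CPM without Glis1 and 6772 CPM without Sall4 (-1.77 ± 0.15, adjusted p = 7.3e-07). Loxl2, a collagen crosslinking oxidase, was at 36.4 to 477 CPM (median 60.4) against 201 to 1665 CPM (median 264) (-2.33 ± 0.16, adjusted p = 1e-07). Among fibrillar collagens Col5a1 (-1.76 ± 0.16), Col3a1 (-1.21 ± 0.11) and Col1a1 (-0.90 ± 0.08) were higher without Sall4, while Col1a2, which pairs with Col1a1 in type I collagen, was higher without Glis1 (0.75 ± 0.15, adjusted p = 0.001). The basement membrane chains Col4a3 and Col4a4, which assemble together, were at 8.15 to 90.5 CPM and 14.4 to 66.9 CPM without Glis1. Without Sall4 they were at 0 to 10.7 CPM and 2.01 to 8.65 CPM (4.11 ± 0.42 and 3.17 ± 0.33, adjusted p = 3.6e-06 and 4.4e-06). Elastin (Eln) was at 842 CPM without Glis1 and 33.6 CPM without Sall4 on day 0, and at 30.7 and 31.8 CPM on day 7 (2.66 ± 0.56, adjusted p = 0.0018). Without the day term 3 matrix and 4 contractile genes were called higher without Sall4, and 7 contractile genes were called when all 32 leave-out libraries entered the fit.

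Tgfb3 (median 62.2 against 318 CPM, adjusted p = 7.2e-06), Tgfb1 (-1.68 ± 0.16, adjusted p = 1.6e-06) and Snai1 (-1.24 ± 0.19, adjusted p = 0.00013), a ligand pair and a repressor of epithelial genes, were higher without Sall4. Prrx1, a mesenchymal homeobox factor, was higher without Glis1 (1.12 ± 0.17, adjusted p = 0.00011), as was Zeb1 (0.55 ± 0.12, adjusted p = 0.0023; 0.36 by limma, adjusted p = 0.0837). The other 5 mesenchymal regulators did not pass. Of 12 fibroblast markers, 5 were higher without Sall4, among them Dcn, Thy1 and Vim, and 2 were higher without Glis1. All genes tested gave 20.2% and 18.8%, and the median log2 fold change of the markers was -0.54. Pdgfrb, higher without Glis1, did not pass by limma (adjusted p = 0.0544) or in some edgeR fits with a day left out (adjusted p = 0.0639 to 0.103). Without the day term Pdgfrb, Thy1 and Vim did not pass (edgeR adjusted p = 0.492, 0.248 and 0.0825). Pdgfra was at 22.9 to 157 CPM (median 47.5) without Glis1 and 99.8 to 233 CPM (median 202) without Sall4 (-2.04 ± 0.32, adjusted p = 0.00018), and Mmp2, a gelatinase, was at 226 to 455 CPM (median 383) against 56.0 to 204 CPM (median 89.6) (1.99 ± 0.25, adjusted p = 2.8e-05).

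**Figure D4:**
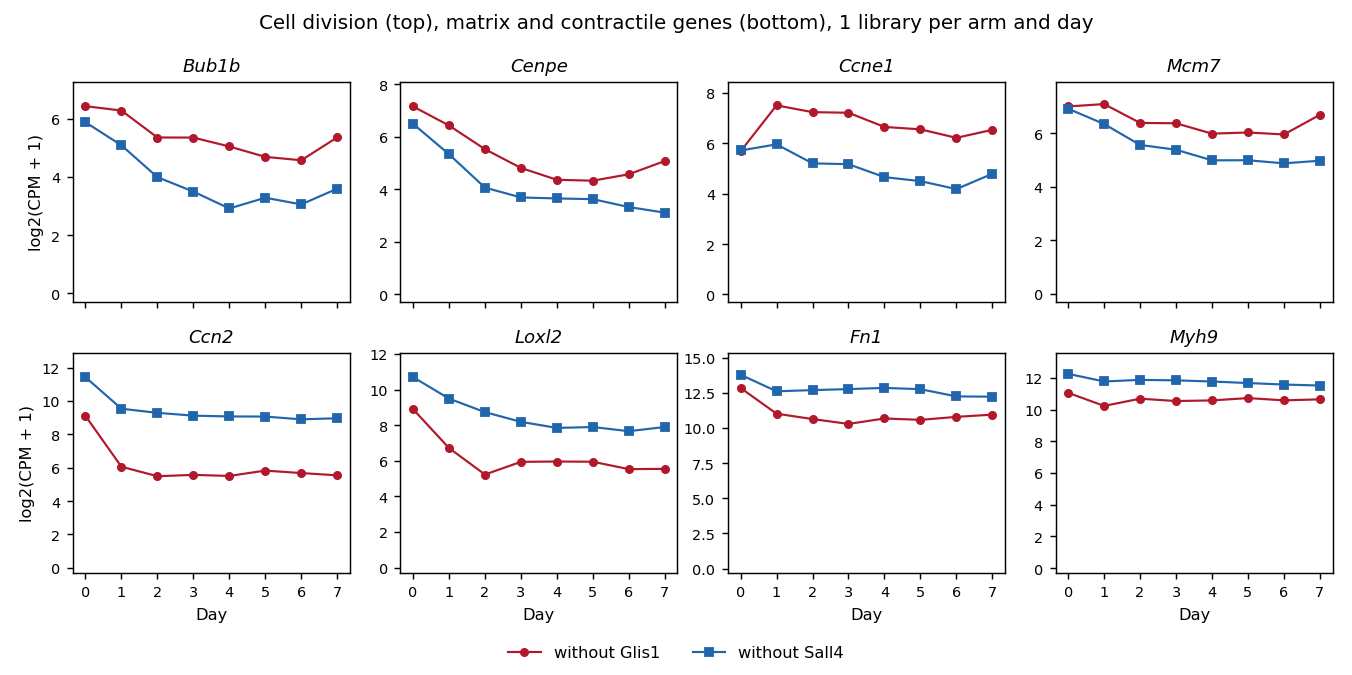
Cell division genes (top row) and matrix and contractile genes (bottom row) as log2(CPM + 1) on days 0 to 7, in the arm without Glis1 (red circles) and the arm without Sall4 (blue squares), 1 library per point. Ccne1 starts at 50.4 and 51.5 CPM and then lies higher without Glis1, while Ccn2 lies lower without Glis1 on every day.

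Epithelial genes leaned toward the arm without Glis1, with 9 of 19 measured genes higher there and 3 higher without Sall4. Cldn3, a tight junction protein, was at 5.65 to 74.7 CPM (median 51.5) without Glis1 and 0 to 10.0 CPM (median 3.45) without Sall4 (3.52 ± 0.20, adjusted p = 1.9e-08). Spint2, an epithelial protease inhibitor, was at 19.8 to 240 CPM (median 184) against 5.25 to 75.8 CPM (median 40.0) (2.06 ± 0.13, adjusted p = 3.9e-08). Epcam, an adhesion molecule of epithelia and stem cells, was at 0.471 to 23.8 CPM (median 4.85) against 0.403 to 2.42 CPM (median 0.936) (2.37 ± 0.37, adjusted p = 0.00015). Krt19 and Krt7, simple epithelial keratins, ran the other way (-3.52 ± 0.27 and -2.51 ± 0.46, adjusted p = 2.8e-07 and 0.00056). Krt19 was at 4.05 to 20.2 CPM without Glis1 and 68.3 to 131 CPM without Sall4, so a junction protein and a keratin of the same kind of cell separated the arms in opposite directions. Dsp, the third gene higher without Sall4, did not pass when day 1, 4, 5, 6 or 7 was left out (adjusted p = 0.0535 to 0.0578).

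Pluripotency genes were low in both arms, and only 14 of 27 members passed the filter. Of these, 6 were higher without Glis1 and 2 were higher without Sall4. Pou5f1 (Oct4) was at 0 to 10.5 CPM (median 2.64) without Glis1 and 0 to 0.843 CPM (median 0.161) without Sall4 (3.20 ± 0.87, adjusted p = 0.006). Sox2 ran opposite, at 0.479 to 8.08 CPM (median 1.30) without Glis1 and 1.05 to 48.8 CPM (median 37.6) without Sall4. On day 0 Sox2 was at 0.942 and 1.05 CPM, and the arms separated from day 1, at 0.479 against 13.3 CPM (-3.73 ± 0.37, adjusted p = 2.7e-06). With the full set Pou5f1 was at 16.2, 104 and 372 CPM, and Sox2 at 124, 102 and 202 CPM, on days 2, 4 and 6. Each of these values lay above the same day in both arms.

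Klf4 was higher without Sall4 (-1.39 ± 0.31, adjusted p = 0.0029), whereas the naive factors Tbx3 (medians 55.7 and 27.7 CPM, adjusted p = 3.1e-05) and Tfcp2l1 (0.95 ± 0.24, adjusted p = 0.0065) were higher without Glis1. Nodal, a ligand of the pluripotent epiblast, was at 0.471 to 5.65 CPM against 0 to 1.04 CPM (2.57 ± 0.67, adjusted p = 0.0047). By limma Tfcp2l1 was at 0.43 (adjusted p = 0.0933). Nr5a2 had 20 counts without Glis1 and 0 without Sall4, at least 8.41-fold higher, and did not pass by DESeq2 (adjusted p = 0.326). Utf1 had 12 counts against 0, at least 5.05-fold higher, and did not pass when day 2, 3, 4 or 5 was left out (adjusted p = 0.0555 to 0.0651).

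Of 14 measured primitive endoderm genes 4 were higher in each arm, beside 18.8% and 20.2% of all genes tested. Sox17 had 96 counts without Glis1 and 0 without Sall4, at least 40.4-fold higher, with 10.8 CPM on day 6 and 22.6 CPM on day 7. Sox17 did not pass by DESeq2 (adjusted p = 0.412) or with the slope added (adjusted p = 0.0898). Gata4 was at 7.51 to 13.2 CPM without Glis1 and 0.346 to 4.20 CPM without Sall4 (2.15 ± 0.34, adjusted p = 0.00017).

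Wnt pathway targets were mostly higher without Glis1: 9 of 16 genes were higher there and 2 were higher without Sall4. Axin2, a feedback inhibitor and general Wnt target, was at 2.35 and 6.83 CPM on day 0, then at 116 to 186 CPM without Glis1 and 19.7 to 36.1 CPM without Sall4 (2.10 ± 0.22, adjusted p = 5.6e-06). Rnf43, which removes Wnt receptors, was at 0.942 to 28.7 CPM (median 16) against 0 to 3.12 CPM (median 1.56) (3.37 ± 0.25, adjusted p = 1.8e-07). Tcf7, a transcription factor of the pathway, had a log2 fold change of 1.54 and Sfrp2, a secreted modulator, one of 1.64. Wif1, a secreted Wnt inhibitor, was at 0 to 2.35 CPM (median 0.684) without Glis1 and 2.10 to 79.5 CPM (median 62.3) without Sall4 (-5.82 ± 0.52, adjusted p = 1e-06). Sp5, a Wnt target (-1.14), did not pass when day 1, 2, 3 or 4 was left out (adjusted p = 0.052 to 0.060). In the BMP list 3 of 15 genes were higher without Glis1 and 5 without Sall4, beside 18.8% and 20.2% of all genes. The genes higher without Sall4 were led by Hey1, a repressor also known as a Notch target. Hey1 was at 0 to 3.63 CPM (median 2.65) without Glis1 and 7.88 to 111 CPM (median 63.0) without Sall4 (-4.75 ± 0.27, adjusted p = 1.5e-08).

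In oxidative phosphorylation 17 of 34 nuclear-encoded subunits were higher without Sall4 and none of the 34 was higher without Glis1 by edgeR, and the median log2 fold change was -0.22. Uqcrc1, a core subunit of complex III, was at 236 to 319 CPM (median 282) without Glis1 and 353 to 517 CPM (median 426) without Sall4, with no overlap (-0.57 ± 0.07, adjusted p = 3.1e-05). Ndufa2 of complex I had a log2 fold change of -0.83 ± 0.11 (adjusted p = 3.7e-05). The count fell to 7 without the day term and to 11 with 32 libraries in the fit. Among 9 mitochondrially encoded transcripts 1 was higher without Glis1 and none of the 9 was higher without Sall4 by edgeR.

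In glycolysis 12 of 21 genes were higher without Glis1 and 3 were higher without Sall4. The glucose transporter Slc2a3 was at 8.48 to 132 CPM (median 64.4) without Glis1 and 5.78 to 12.1 CPM (median 7.86) without Sall4 (2.92 ± 0.23, adjusted p = 3.5e-07). Aldoa, which splits fructose bisphosphate, was higher without Sall4 (-0.65 ± 0.07, adjusted p = 7.6e-06). Without the day term 6 glycolysis genes were called higher without Glis1. Of 16 sterol synthesis genes 7 were higher without Sall4, among them Idi1 (-0.82 ± 0.13, adjusted p = 0.00021). That count fell to 4 without day 6, to 4 by limma and without the day term, and to 3 with 32 libraries.

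Of 13 NuRD genes 2 were higher without Glis1 and 1 was higher without Sall4, shares below the 18.8% and 20.2% of all genes tested. Chd3, an alternative remodelling subunit, was at 82.9 to 167 CPM (median 98.9) without Glis1 and 237 to 358 CPM (median 263) without Sall4, with no overlap (-1.36 ± 0.09, adjusted p = 7.1e-08). Its counterpart Chd4 did not pass, at a log2 fold change of -0.03 ± 0.07. Mta3 was at 73.3 to 104 CPM (median 80.3) against 38.3 to 54.7 CPM (median 48.2) (0.87 ± 0.09, adjusted p = 4.5e-06), and Gatad2a had a log2 fold change of 0.57 ± 0.09 (adjusted p = 0.00027). In the Polycomb repressive complex 2 list, Jarid2 was higher without Glis1 (1.21 ± 0.11, adjusted p = 1.6e-06) and Phf19 was higher without Sall4 (-3.01 ± 0.43, adjusted p = 7.6e-05). Tet1, which oxidises methylated cytosine, was at 4.29 to 13.3 CPM against 0 to 5.25 CPM (2.12 ± 0.42, adjusted p = 0.001), and did not pass by limma (1.02, adjusted p = 0.0681).

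AP-1 genes, whose products pair with or compete with Jdp2, were divided, with 2 of 10 higher without Glis1 and 5 higher without Sall4. All genes tested gave 18.8% and 20.2%. Junb was at 132 to 278 CPM (median 170) without Glis1 and 328 to 868 CPM (median 553) without Sall4 (-1.63 ± 0.14, adjusted p = 9e-07). Jund was at 329 to 470 CPM (median 410) without Glis1 and 115 to 287 CPM (median 241) without Sall4 (0.84 ± 0.12, adjusted p = 8.5e-05). Neither gene overlapped between the arms, and the 2 close relatives lay on opposite sides. Fosb (-2.75), Maff (-0.79) and Fosl2 (-0.65) were also higher without Sall4, and Maf (1.11) the other gene higher without Glis1. Over days 3 to 7 alone, Maff was at -0.32 (adjusted p = 0.108). Jun and Fos did not pass.

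The largest steady gaps were mostly in genes outside these lists. Ly6d, a surface antigen of epithelial and lymphoid cells, was at 2.35 to 258 CPM (median 159) against 0 to 2.42 CPM (median 0.587) (7.41 ± 0.44, adjusted p = 2.5e-08). Ace, the angiotensin-converting enzyme, was at 7.06 to 556 CPM (median 220) against 0 to 9.25 CPM (median 1.57) (6.38 ± 0.42, adjusted p = 6.7e-08). Gulo, the last enzyme of vitamin C synthesis, was at 0.942 to 50.5 CPM (median 40.7) against 0 to 0.692 CPM, and Mybpc2, a muscle sarcomere protein, at 3.35 to 38.1 CPM against 0 to 0.769 CPM. With 3 counts or fewer in the other arm, ratios of summed counts with 95% counting intervals were 338 (60.2 to 13404) for Edn3, 245 (67.3 to 2028) for Bst1, 197 (54.2 to 1637) for Tmem63c and 174 (47.7 to 1445) for Inpp5j. Krt90 had no count without Sall4 and was at least 54.7-fold higher without Glis1.

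Among genes higher without Sall4, Gdf10, a ligand of the TGF-beta family, was at 0 to 1.91 CPM (median 1.17) without Glis1 and 11.6 to 416 CPM (median 277) without Sall4 (-7.84 ± 0.24, adjusted p = 1.8e-10). Il11, a cytokine of stromal cells, was at 0 to 1.16 CPM (median 0.446) against 40.8 to 179 CPM (median 57.5) (-6.94 ± 0.30, adjusted p = 1.8e-09). Pcdh8, a protocadherin, was at 0 to 1.92 CPM against 4.73 to 130 CPM (median 95.0), and Krt83, a hair keratin, at 0 to 1.92 CPM against 22.6 to 96.3 CPM (median 75.9). Nwd1 was at 0 to 0.808 CPM against 3.68 to 87.4 CPM (median 66.3). Ratios of summed counts were 623 (172 to 5152) for Mybph, 247 (43.9 to 9768) for Tlx3 and 149 (50.6 to 723) for Gdap1l1, all in favour of the arm without Sall4. Muc4 and the pseudogene Pgam1-ps2 had no count without Glis1, and were at least 33.0-fold and at least 173-fold higher without Sall4. Reads of Pgam1-ps2 may belong to near-identical copies, so its level is uncertain.

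Lists for other cell types were counted to describe the cultures. Of 3 measured red blood cell genes all 3 were higher without Glis1, at a summed 0.942 to 85.8 CPM against 0.532 to 19.2 CPM, with Hbb-bs, Hbb-bt, Hba-x and Hbb-y at 0 in every library of both arms. Alas2, 1 of the 3, did not pass when day 0, 2, 3, 4, 5 or 6 was left out (adjusted p = 0.053 to 0.125), and Hba-a1 and Hba-a2 are near-identical copies. Endothelial genes gave 1 of 9 higher without Glis1 (Kdr, 1.57) and 3 higher without Sall4 (Sox18, Egfl7 and Flt1). All genes tested gave 18.8% and 20.2%. Neural and glial genes gave 2 of 8 in each direction, beside 18.8% and 20.2% of all genes, with Sox10 higher without Glis1 (2.53 ± 0.32, adjusted p = 2.8e-05) and Nes higher without Sall4 (-1.98 ± 0.13, adjusted p = 8.6e-08). In muscle, Tnnt3 was higher without Sall4 (-2.89) and Ckm higher without Glis1 (2.70), with Myod1 and Myf5 at 0 throughout. Fewer cells of a type and less RNA per cell cannot be told apart in these bulk libraries, and the part of such cells in the other results was not tested.

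**Figure D5:**
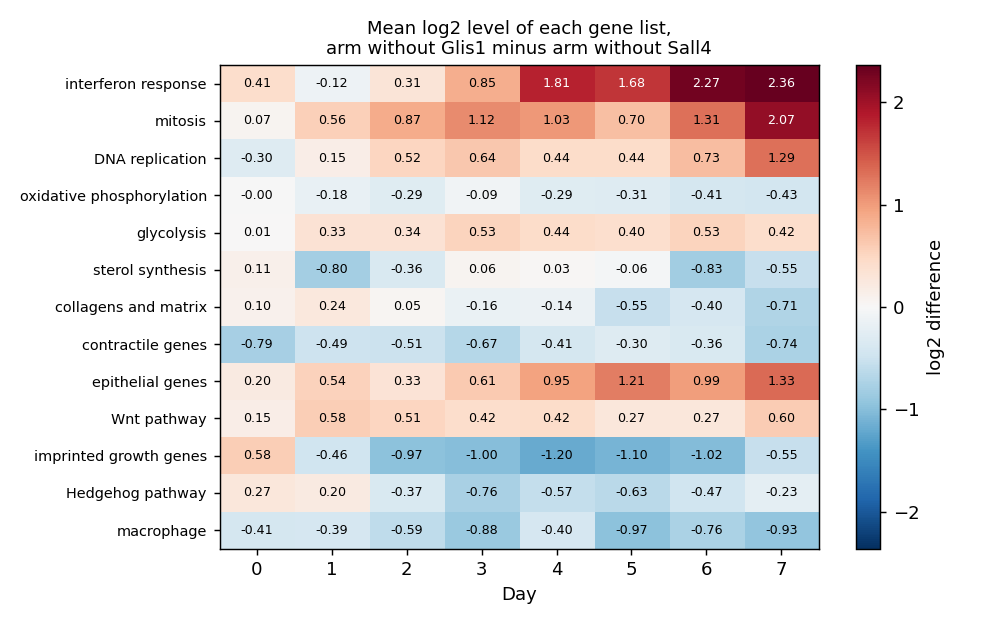
Mean log2(CPM + 1) of the measured genes of each list in the library without Glis1 minus that in the library without Sall4, for each of days 0 to 7, with the value printed in each cell (red, higher without Glis1; blue, higher without Sall4). The interferon row runs from 0.41 on day 0 to 2.36 on day 7, and the imprinted row changes from 0.58 on day 0 to -1.20 on day 4.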

How the data were processed

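RNA was sequenced in 35 libraries, of which 16 entered the fits. Per the submitters' processing notes, bcl2fastq, Bowtie2 and RSEM were used with the mm10 build; versions and the annotation release are not given in the sources used here. The authors deposited RSEM gene tables of 54752 genes, whose expected count column holds estimated counts per gene, not normalized, per the file headers. Deposited TPM entered 1 alternative only. The deposited FPKM values and transcript lengths were not used.

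Expected counts were rounded, filtered to at least 1 CPM in at least 3 of the 16 libraries, TMM-scaled and fitted in edgeR 4.0.16 (R 4.3.3; quasi-likelihood test, day as a factor plus arm, 7 residual degrees of freedom; Benjamini-Hochberg). A second fit added a slope difference per day. Gene symbols were matched by Ensembl identifier for 54723 genes. Day was a factor because the same days were compared; deviations of same-day libraries from their arm means correlated by 0.07 to 0.57, and 3 of 8 days matched their own day best. Scripts were tested on simulated data. Alternatives used DESeq2 1.42.0, limma 3.58.1, other scaling and filters, thinned counts and left-out days. Reference levels used TMM over 35 libraries and nearness used log2(CPM + 1). Genes named were the delivered factors and up to 4 per direction and list part by size of change. They also include the 10 largest per direction at a mean of at least 5 CPM with the same sign on 8 days, and the 5 largest slopes per direction. Tcf7, Smo, H19, Grb10, Fosl2, C1qb, Ifit1, Isg15, Ifit3, Ifit3b, Rsad2, Oas3 and genes that did not pass were named after their values were seen. The members and lists were chosen with earlier results of these data known. Some genes within these rules are not reported here.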

Additional observations from a re-analysis of the deposited data

Results flagged for a closer look

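Day 0 stood apart for several differences between the arms. Across 8 days, the gap between the most extreme day and its neighbour was divided by the whole range. It exceeded Dixon's 95% critical value for 8 values in 12 of 36 differences examined. These were 13 lists, the 4 factors and 19 of the genes with the largest changes. For independent values chance gives about 1 in 20. That rate does not apply here, since the days are ordered and the genes were picked from the same data. Day 0 was the extreme day in each of the 12. Values on day 0 are the log2(CPM + 1) without Glis1 minus that without Sall4. For the lists, it was 0.01 in glycolysis and 0.58 in imprinted growth genes. For genes higher without Glis1 over the week it was 0.38 in Ly6d, 0.96 in Edn3, 2.64 in Bst1 and 0.96 in Gulo. For genes higher without Sall4 it was -1.37 in Mybph, -3.09 in Gdf10, -2.23 in Nwd1 and -2.05 in Gdap1l1, and -5.61 in Glis1 itself. In these genes day 0 was the smallest difference of the week, whereas in Il11 it was the largest, at -7.49.

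The difference between the arms changed over the week by a test of the slope in 9 named genes with large slopes, in log2 units per day. Slopes toward higher levels without Glis1 were 2.93 in Caln1, 1.08 in Rasd2, 1.06 in Epsti1 and 1.06 in Plk5. Slopes the other way were -1.32 in Lzts1, -1.19 in Itga11, -1.10 in Wif1, -1.04 in Spock1 and -1.0 in Cacna1g. Most rested on few days. Caln1 was at 0 and 1.58 CPM on day 0 and 67.2 against 0 CPM on day 5, and its slope without day 0 was 0.47 (edgeR adjusted p = 1). Itga11 without day 0 was at 0.18 (adjusted p = 0.753). Without day 0, Wif1 was at -0.57 (adjusted p = 0.345) and Cacna1g at -0.58 (adjusted p = 0.128), and without day 7 Rasd2 was at 0.76 (adjusted p = 0.063). Epsti1 did not pass when day 1, 2, 4, 5, 6 or 7 was left out, and leaving out day 1 gave 0.65 in Epsti1 (adjusted p = 0.312) and 0.54 in Plk5 (adjusted p = 0.12).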

How the results depend on the processing

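Over 18 alternatives, 152 of 245 named genes kept direction and call in each alternative that gave them a value, and none of their fold changes turned sign. DESeq2's size factors changed no call among 254 named results, limma on log2(TPM + 1) lost 45 and the fit with no day term, which has no block for the paired days, lost 69. The cause was not tested, except that fits with fewer days hold fewer libraries. With no block for days, genes higher without Glis1 numbered 1 for mitosis, 3 for DNA replication and 6 for glycolysis, and genes higher without Sall4 numbered 7 for oxidative phosphorylation, 4 for sterol synthesis, 3 for matrix, 4 for contractile genes and 3 for Hedgehog. By limma 4 sterol and 2 Hedgehog genes were called. With 32 libraries in the fit the counts were 11 for oxidative phosphorylation, 3 for sterol, 7 for contractile and 3 for Hedgehog genes. Leaving out 1 day gave 5432 to 6951 genes between the arms, 1575 to 1680 with a steady 2-fold difference, 3 to 5 Hedgehog and 4 to 8 sterol genes.

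Slope counts also moved. Against 451 genes (170 rising, 281 falling without Glis1), there were 76 (39 and 37) by limma, 295 (93 rising) over days 3 to 7, 257 (108 and 149) with 32 libraries and 721 (262 and 459) on log2(day + 1). Leaving out 1 day gave 218 to 555 genes, 82 to 258 rising and 136 to 297 falling, with the lowest of each without day 6. Leaving out 1 day gave slopes of -1.58 to 0.18 (without day 0, a turn of sign) in Itga11. Slopes also turned sign in Wif1 (0.13) and Cacna1g (0.34) over days 3 to 7, and Spock1 by limma (0.058). With 1 library per arm and day, genes below about 1 CPM rest on 1 or 2 counts a library, and intervals of ratios cover counting error only.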

Other observations

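Genes of the mouse 2-cell stage, which are transiently expressed in rare cultured stem cells, were mostly below the filter on low counts, with 3 of 11 measured. Zscan4c had 54 counts without Glis1 and 1 without Sall4, Zscan4f 73 and 3, and Zscan4d 34 and 0. Nearly all of these counts without Glis1 came from days 1 and 2. Without day 1 the counts were 16 and 1 for Zscan4c, 13 and 3 for Zscan4f and 7 and 0 for Zscan4d, and without both days 0 and 0, 3 and 3, and 1 and 0. On day 0 the mean log2 level of the 3 measured genes of the list was 0.58 without Glis1 and 1.26 without Sall4. The counts without these days were chosen after seeing the data. These copies are near-identical, so counts may be divided between them, and they were named after their values were seen. The summed level of the list reached 108 CPM in 1 library without Glis1, against a median of 1.15 CPM in that arm, and 4.73 CPM at most without Sall4.

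Xist, which is expressed from the inactive X chromosome, was at 290 to 443 CPM without Glis1 and 153 to 320 CPM without Sall4 (log2 fold change 0.60 ± 0.10, edgeR adjusted p = 0.0004). The Y-linked gene Uty was at 8.01 to 16.8 CPM against 4.63 to 12.5 CPM (0.78 ± 0.20, adjusted p = 0.0064). The Y-linked Ddx3y ran the other way at -0.37 ± 0.15 and did not pass (adjusted p = 0.0624), nor did Eif2s3y at 0.30 ± 0.16 (adjusted p = 0.159). Kdm5d had a log2 fold change of 0.55 (adjusted p = 0.0307) and did not pass when day 0, 2, 3 or 4 was left out (adjusted p = 0.0555 to 0.0741). By limma Uty did not pass (adjusted p = 0.0587). Xist and Uty were detected in all 16 libraries.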
